A study of Homo sapiens with 15 samples.

Results

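Constitutive regions far from genes are stretches of open chromatin that were called as a peak in every library of the study and lie in the sequence between protein-coding genes, away from all of them. HPAF-II is an established line of human pancreatic adenocarcinoma cells that depends on its own WNT ligands for growth, and Lgk974 inhibits porcupine, the acyltransferase that WNT ligands need before they can be secreted. Chromatin that a transposase could reach was mapped by ATAC-seq after 1 µM Lgk974 for 24 h (4 libraries), DMSO for 24 h (4 libraries), 1 µM Lgk974 for 48 h (3 libraries) or DMSO for 48 h (4 libraries). All cells were of this single line, the labels name no gene edit or second agent, and nothing in them ties replicates to separate cultures; p-values therefore measure only how far these libraries spread. Peaks of the 15 libraries were merged into 222814 regions on hg38 wherever they shared at least 1 bp. Members were the regions under 2000 bp wide that held a peak in all 15 libraries, lay outside every protein-coding gene of RefSeq and were more than 100 kb from either end of any such gene. The rule kept 2677 regions, 1.20% of all regions and 7.56% of the 35389 regions called in all 15 libraries. The members were chosen by the peak calls of these libraries, by width and by distance, so those measures are given as a description without a test.

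Most open chromatin that lies far from promoters marks enhancers, insulators or the starts of non-coding RNAs. Enhancers are bound by transcription factors such as AP-1, a dimer of JUN and FOS family proteins that opens chromatin in epithelial and carcinoma cells, and they can act on promoters across long gene-free stretches, which are common beside developmental regulators. Open sites of this kind are usually more specific to a cell type than promoters. A flanking gene is named below for its position only, and no target gene was assigned to any member.

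No genome sequence was used here, so sequence was read only where a RefSeq promoter window (250 bases before to 50 after the start of an annotated gene, GRCh38.p14) lay inside a member. Each window printed belongs to a long non-coding RNA, is written 5′ to 3′ on the strand of that RNA in lower case, and has matches to the motifs searched in capitals (on either strand and free to overlap each other, with AP-1 written as TGANTCA, TEAD factors as GGAATG, ETS factors as CCGGAAG, FOX factors as TGTTTAC, the GATA family as AGATAA, HNF1 factors as GTTAAT, KLF factors as GGGNGTG, RUNX factors as TGTGGTT and TCF/LEF factors as CTTTGAT). The windows were picked after their values had been seen. The first 3 come from members that were called stronger with Lgk974: LINC03141 at chr12:4011659-4011958 (+) between PARP11 and CCND2, which encodes cyclin D2; LINC01358 at chr1:59020226-59020525 (+) between the AP-1 gene JUN and FGGY; and LOC124902787 at chr11:128334232-128334531 (-) between KIRREL3 and ETS1, an ETS family transcription factor. The capitals mark HNF1, TEAD and ETS matches in the first, an AP-1 match in the next and TEAD and ETS matches in the last.
LINC03141: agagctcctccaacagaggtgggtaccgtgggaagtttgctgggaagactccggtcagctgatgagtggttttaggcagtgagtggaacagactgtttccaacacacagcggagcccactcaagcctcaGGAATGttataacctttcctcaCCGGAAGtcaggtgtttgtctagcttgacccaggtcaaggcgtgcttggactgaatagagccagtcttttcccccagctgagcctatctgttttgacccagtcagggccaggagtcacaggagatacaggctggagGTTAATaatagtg
LINC01358: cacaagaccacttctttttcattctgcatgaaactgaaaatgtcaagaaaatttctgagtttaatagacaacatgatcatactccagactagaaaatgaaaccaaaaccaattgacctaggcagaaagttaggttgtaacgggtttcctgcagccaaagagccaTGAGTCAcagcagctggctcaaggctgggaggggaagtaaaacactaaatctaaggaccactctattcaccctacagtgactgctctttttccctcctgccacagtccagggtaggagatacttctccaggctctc
LOC124902787: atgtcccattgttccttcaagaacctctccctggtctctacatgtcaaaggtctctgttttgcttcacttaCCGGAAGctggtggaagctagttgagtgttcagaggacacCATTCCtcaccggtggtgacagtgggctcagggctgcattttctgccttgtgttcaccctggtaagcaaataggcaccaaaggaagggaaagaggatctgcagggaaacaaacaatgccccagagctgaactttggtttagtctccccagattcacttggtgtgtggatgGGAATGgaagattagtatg

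The member with the LINC03141 window had strength percentiles between 44.1 and 67.8 (median 57.9) with Lgk974 and between 10.2 and 16.7 (median 12.9) with DMSO. A strength percentile is the rank of a region among the 35389 constitutive regions of the same library by the authors' −log10 q, with 100 the strongest. The 7 Lgk974 and 8 DMSO libraries did not overlap. For the test the ranks were turned into normal scores, so a difference, Lgk974 minus DMSO over both times, is in SD of the rank score, and its p-value comes from limma with Benjamini-Hochberg adjustment over all 35389 regions. The difference here was 1.30 ± 0.13 (SE, adjusted p = 2.1e-05). For the LINC01358 window the percentiles were 25.1 to 56.1 (median 42.0) with Lgk974 and 0.482 to 31.1 (median 13.97) with DMSO, so the groups overlapped while the difference still passed the test (0.99 ± 0.24, adjusted p = 0.0165). The LOC124902787 window lay in a stronger member, at 83.8 to 94.99 (median 90.4) with Lgk974 and 53.9 to 77.0 (median 68.2) with DMSO, again without overlap.

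The next windows lie in members called weaker with Lgk974. LINC01101 has its window at chr2:120466300-120466599 (-) between INHBB, an activin and inhibin subunit, and GLI2, a transcription factor of the Hedgehog pathway. LOC105374409 has its window at chr4:38279732-38280031 (+) between TBC1D1 and KLF3, a Krüppel-like repressor. LOC124902402 has its window at chr10:29862977-29863276 (-) between SVIL and JCAD. Capitals mark a KLF match in the first and 2 AP-1 matches in the last, while LOC105374409 held none of the motifs searched.
LINC01101: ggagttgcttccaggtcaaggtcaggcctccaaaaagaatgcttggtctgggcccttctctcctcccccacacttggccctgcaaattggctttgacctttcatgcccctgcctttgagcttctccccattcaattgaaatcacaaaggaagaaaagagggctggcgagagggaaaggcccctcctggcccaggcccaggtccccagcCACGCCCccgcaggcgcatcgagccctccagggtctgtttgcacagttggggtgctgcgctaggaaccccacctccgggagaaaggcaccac
LOC105374409: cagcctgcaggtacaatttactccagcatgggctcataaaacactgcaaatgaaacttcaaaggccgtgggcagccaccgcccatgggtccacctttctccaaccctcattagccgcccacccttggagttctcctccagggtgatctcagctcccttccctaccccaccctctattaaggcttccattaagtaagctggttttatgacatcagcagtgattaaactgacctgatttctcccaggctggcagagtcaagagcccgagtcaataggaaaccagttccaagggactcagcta
LOC124902402: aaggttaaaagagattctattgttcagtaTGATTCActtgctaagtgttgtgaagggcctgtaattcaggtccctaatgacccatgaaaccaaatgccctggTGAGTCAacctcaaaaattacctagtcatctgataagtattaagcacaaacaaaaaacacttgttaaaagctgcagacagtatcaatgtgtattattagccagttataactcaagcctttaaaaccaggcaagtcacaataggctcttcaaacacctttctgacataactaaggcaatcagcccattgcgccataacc

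The LINC01101 member ranked from 0.0834 to 71.4 (median 24.7) with Lgk974 and from 42.1 to 86.0 (median 73.0) with DMSO. Within each time the groups were apart: at 24 h the values were 11.1, 11.2, 0.0834 and 24.7 with Lgk974, against 70.8, 67.9, 42.1 and 56.3 with DMSO, and at 48 h they were 36.9, 57.3 and 71.4 with Lgk974, against 83.8, 77.6, 75.3 and 86.0 with DMSO. The difference over both times was -1.27 ± 0.28 (adjusted p = 0.0081). At LOC105374409 the percentiles were 2.53 to 57.0 (median 26.7) with Lgk974 and 40.7 to 86.7 (median 70.9) with DMSO (difference -1.17 ± 0.21, adjusted p = 0.00224). At LOC124902402 they were 9.31 to 36.0 (median 24.9) with Lgk974 and 23.6 to 67.8 (median 51.5) with DMSO (-0.77 ± 0.18, adjusted p = 0.0126). In each of these members, LINC01101 included, the lowest DMSO value was that of DMSO 24 h replicate 3.

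The last windows come from members that were strong in every library and did not pass the treatment test. LINC02226 has its window at chr5:8457515-8457814 (-) between MTRR and SEMA5A, in the strongest member that touches an end of a non-coding gene; LINC02725 has its window at chr11:128095509-128095808 (+), in the same gap between KIRREL3 and ETS1 as LOC124902787; and LINC01271 has its window at chr20:50321293-50321592 (-) between CEBPB, a C/EBP family transcription factor, and the phosphatase gene PTPN1. Capitals mark TEAD and KLF matches in the first, AP-1, FOX, TEAD, KLF and TCF/LEF matches in LINC02725 and 2 AP-1 matches in LINC01271.
LINC02226: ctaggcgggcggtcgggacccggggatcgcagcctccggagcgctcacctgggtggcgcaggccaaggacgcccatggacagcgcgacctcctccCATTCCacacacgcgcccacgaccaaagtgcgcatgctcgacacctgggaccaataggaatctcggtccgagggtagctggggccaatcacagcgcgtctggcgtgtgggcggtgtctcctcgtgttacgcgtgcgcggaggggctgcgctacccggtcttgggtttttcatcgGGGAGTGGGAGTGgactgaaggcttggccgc
LINC02725: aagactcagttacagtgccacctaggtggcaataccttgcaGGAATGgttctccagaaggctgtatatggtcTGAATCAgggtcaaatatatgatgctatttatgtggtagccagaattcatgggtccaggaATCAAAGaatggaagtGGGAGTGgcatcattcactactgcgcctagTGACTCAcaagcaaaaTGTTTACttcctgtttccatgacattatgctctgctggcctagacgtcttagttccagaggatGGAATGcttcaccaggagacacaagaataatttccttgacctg
LINC01271: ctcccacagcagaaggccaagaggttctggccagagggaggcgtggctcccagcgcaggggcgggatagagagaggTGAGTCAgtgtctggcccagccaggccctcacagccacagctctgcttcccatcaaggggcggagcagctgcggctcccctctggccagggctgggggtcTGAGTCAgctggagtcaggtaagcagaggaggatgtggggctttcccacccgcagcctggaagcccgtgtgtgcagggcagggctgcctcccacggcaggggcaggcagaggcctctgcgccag

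Their members ranked from 96.4 to 99.8 with Lgk974 and from 97.9 to 99.9 with DMSO at LINC02226, from 94.6 to 99.8 with Lgk974 and from 81.7 to 99.7 with DMSO at LINC02725, and from 92.9 to 98.9 with Lgk974 and from 90.9 to 99.0 with DMSO at LINC01271. The adjusted p-values were 0.902, 0.806 and 0.525. The 2 members in the KIRREL3 to ETS1 gap therefore lay on different sides of the test, and that contrast between them was itself not tested.

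In all, 99 members (3.70%) overlapped a RefSeq promoter window, against 0.841% of the 32461 far regions under 2000 bp that were called in 1 to 14 libraries. An end of a non-coding gene lay within 1 kb of 305 members (11.4%, against 6.74%), and 976 members (36.5%, against 28.7%) overlapped a long non-coding RNA gene. The far regions compared were not matched for width, and 18608 of them were called in a single library. Members with a promoter window had a median width of 972 bp, and the other members 800 bp. The only miRNA hairpin to overlap a member was MIR5087 on chromosome 1 (0.0374% of members, against 0.0370% of the far regions compared). Pseudogenes overlapped 33 members (1.23%, against 2.16%). Of the 100 promoter windows that lay wholly inside members, 35 (35%) held an AP-1 match, against 10.4% of all 12960 non-coding windows and 7.71% of all 35116 windows. The FOX motif, the site of forkhead factors, was in 10% of member windows and 4.40% of non-coding windows, GATA in 21% and 14.5%, TEAD in 22% and 17.1%, RUNX in 9% and 5.24%, ETS in 9% and 5.90%, and KLF in 31% and 23.9%. HNF1 matches were in 5% of member windows and 9.15% of non-coding windows, TCF/LEF matches in 2% and 3.70%, and the core motif of the insulator protein CTCF in 0 and 0.563%. GC content was similar, with a median of 50.3% in member windows and 50.0% in non-coding windows. The highest point of the peak, taken as the median summit over libraries, fell inside a whole window for 64 members. Of these, 27 windows held an AP-1 match, the nearest match lay a median of 34 bp from the summit, and 18 windows had a match within 50 bp of it. These are letter matches in windows of known RNAs and say nothing of the members without such a window. Some members held overlapping windows, on the same or opposite strands, so a single site can be counted more than once. The non-coding windows compared were not limited to open chromatin or to sequence far from genes.

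Members were of middling strength, and the rule kept only regions under 2000 bp wide. Their median width was 805 bp (quartiles 666 and 1001 bp, range 359 to 1987 bp). Constitutive regions of any width had medians of 815 bp inside genes, 799 bp between genes within 100 kb and 1276 bp at gene ends. The median distance of members from the nearest protein-coding gene was 195 kb, and 280 members (10.5%) lay over 500 kb away. The median member had a mean percentile of 49.6, against 58.4 for the 10210 constitutive regions within 1 kb of a protein-coding gene end, 44.6 for the 12616 inside genes and 43.6 for the 9878 between genes within 100 kb of one. This order turned when regions were ranked by the authors' fold over background: among regions under 2000 bp the medians were then 59.1 for members, 51.2 at gene ends, 49.3 inside genes and 49.8 between genes. Members occupied a small share of their own surroundings. Of the 35149 regions far from genes, 2685 (7.64%) were called in all 15 libraries, against 48.2% at gene ends, 12.9% inside genes and 14.4% between genes within 100 kb. At the edge of the rule, the widest member (chr7:27423261-27425247, 1987 bp, 43.7th percentile) and the narrowest region over the limit (chr3:194870658-194872664, 2007 bp, 65.1st percentile) were alike in size, and the nearest member (chr2:181780569-181781504, 100051 bp from the neural transcription factor gene NEUROD1) was close in distance to a gene to the excluded region at chr2:39996533-39997305, 99964 bp from the sodium-calcium exchanger gene SLC8A1. A further 1284 far regions missed membership by 1 library.

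**Figure D1:**
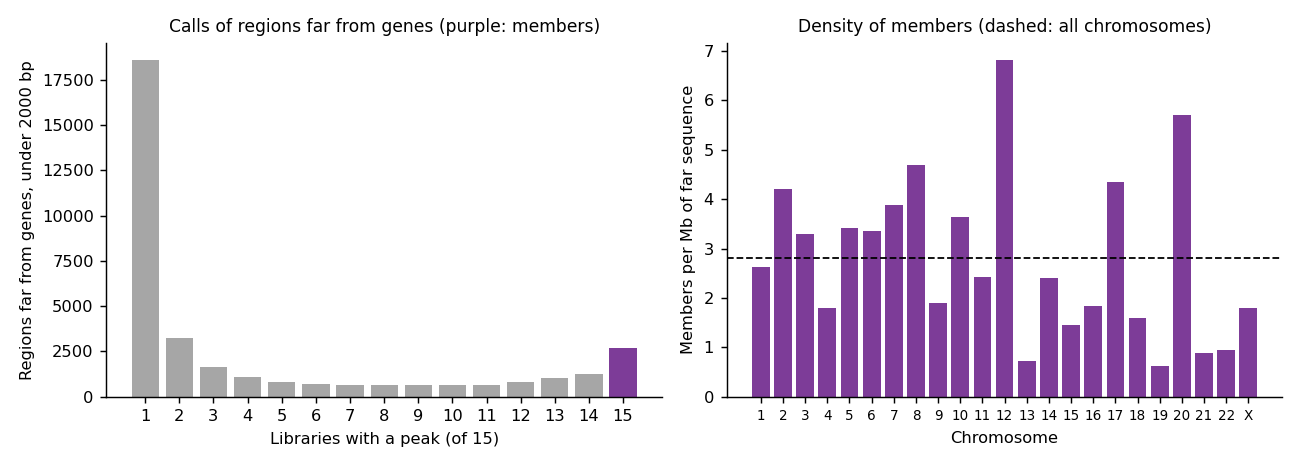
Left, number of regions far from genes and under 2000 bp wide by the number of libraries with a peak, from 18608 in 1 library to the 2677 members in 15 (purple). Right, members per Mb of sequence over 100 kb from any protein-coding gene on each chromosome, with the value for all chromosomes (2.81) dashed; chromosome 12 is highest at 6.83.

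A single library set much of that boundary. Of the 1284 regions called in 14 libraries, 629 (49.0%) were missing from DMSO 24 h replicate 3, 387 (30.1%) from Lgk974 48 h replicate 3 and 210 (16.4%) from Lgk974 24 h replicate 3. The lists of Lgk974 24 h and 48 h replicates 3 were the shortest (53610 and 57708 peaks), while that of DMSO 24 h replicate 3 was the longest (127886 peaks). Lists of the other 12 libraries held 76756 to 122834 peaks; read counts were not used, so depth is unknown. DMSO 24 h replicate 3 also ranked members lower than any other library did: their median percentile there was 35.4, against 47.8 to 57.1 in the other 14. By group, the library medians averaged 51.1 ± 2.3 with Lgk974 at 24 h (SD, n = 4) and 48.1 ± 8.8 with DMSO at 24 h (n = 4), and 51.9 ± 3.5 with Lgk974 at 48 h (n = 3) and 53.1 ± 2.7 with DMSO at 48 h (n = 4). The medians ran from 47.8 to 55.1 with Lgk974 and from 35.4 to 57.1 with DMSO, where 35.4 was DMSO 24 h replicate 3. A shift of members as a set was not tested. Ranks among regions called in every library cannot show a change common to all of those regions.

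**Figure D2:**
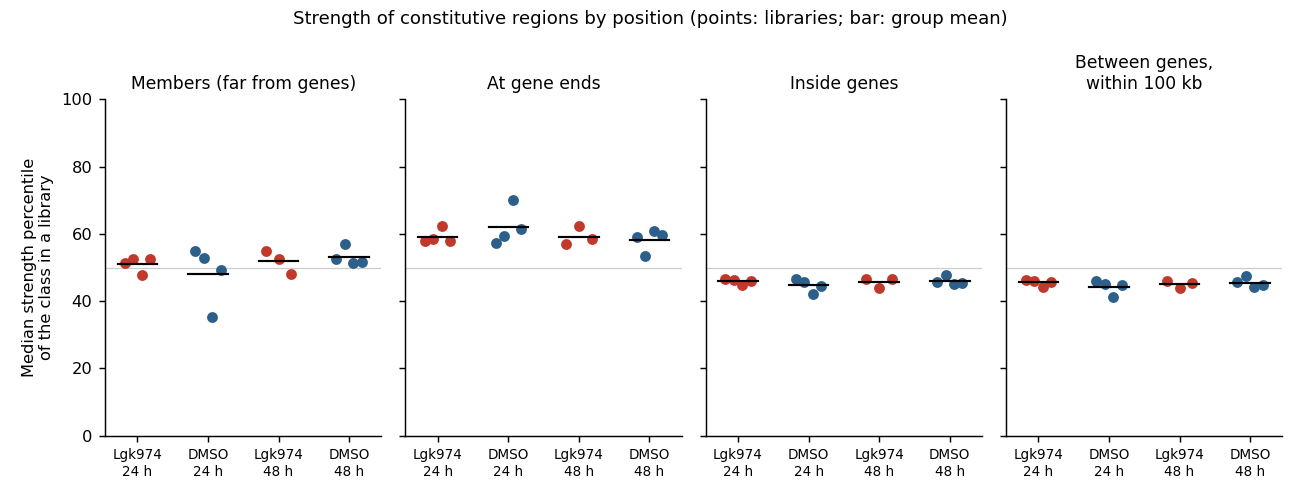
Median strength percentile (0 to 100) of constitutive regions in each library by position; points are libraries and bars group means. Members sit between 47.8 and 57.1 in 14 libraries and at 35.4 in DMSO 24 h replicate 3, where gene ends are at 70.1.

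Peaks in members were sharp in position. In 2250 members (84.0%) each library had exactly 1 peak. The summit varied between libraries with a median SD of 41.3 bp, against 46.9 bp at gene ends, 42.6 bp inside genes and 42.7 bp between genes within 100 kb. It stayed within an SD of 10 bp in 38 members and exceeded 100 bp in 244. Wider members tended to rank higher, with a Spearman correlation of 0.37 across the 2677 members, a description over regions that share their libraries.

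The strongest members ranked near the top of nearly every library. At chr8:121776145-121776861, between the hyaluronan synthase gene HAS2 and the zinc finger gene ZHX2, the percentile was 99.2 to 100.0 with Lgk974 and 99.5 to 100.0 with DMSO. At chr5:93078307-93079420, 504 kb from NR2F1, which encodes an orphan nuclear receptor, it was 99.3 to 100.0 with Lgk974 and 99.2 to 99.8 with DMSO. Other members with a mean of at least 98.9 were chr6:14270723-14271693 between CD83 and JARID2, a subunit of the polycomb repressive complex, chr18:22683039-22684122 between CTAGE1 and RBBP8, chr2:64830884-64832128 beside SLC1A4, chr15:93829055-93830095 between RGMA and MCTP2, chr21:35217287-35218167 between the transcription factor gene RUNX1 and SETD4, chr7:21010940-21011729 between the related zinc finger genes SP8 and SP4, chr8:128554706-128555705, 812 kb past the proto-oncogene MYC, and chr2:226411490-226412409 between NYAP2 and the insulin receptor substrate gene IRS1. Over these 10 the lowest value in any library was 88.5, at the NYAP2 to IRS1 member in DMSO 24 h replicate 3, which also gave the SP8 to SP4 member its lowest value (94.5). None of these 10 passed the treatment test (adjusted p from 0.343 to 0.984). In all, 84 members had a mean of at least 95, and 45 stood at or above 90 in every library. At the other end, 15 members had a mean under 5; the weakest, chr6:101011170-101011771 between ASCC3 and the glutamate receptor gene GRIK2, ranked from 0.0706 to 2.94 with Lgk974 and from 0.0862 to 5.25 with DMSO.

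The most remote members were not among the weakest. The farthest, chr20:28602024-28603319, lay 2210 kb from a protein-coding gene and ranked 84.6 to 94.9 with Lgk974 and 80.6 to 94.5 with DMSO. On the same chromosome chr20:29079786-29080918, 1733 kb away, ranked 56.1 to 95.6 with Lgk974 and 71.0 to 88.0 with DMSO. Both lie beside the centromere of that chromosome, and no filter for repeats or mapping artefacts was applied here. Whether their signal came from such artefacts was not tested. The other members of the 5 farthest were chr18:39946454-39947281 before PIK3C3, chr4:34180881-34182289 between the protocadherin gene PCDH7 and ARAP2, and chr5:165464052-165465492 before the teneurin gene TENM2. Their means were 74.6, 79.8 and 59.1, and the lowest value of the first and of the next, 18.4 and 7.39, was in DMSO 24 h replicate 3.

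A minority of gene-free gaps held members. RefSeq held 1650 gaps over 200 kb between protein-coding genes, with 949 Mb of sequence over 100 kb from either side, unassembled stretches included. Of these, 718 gaps held a member, 248 of them a single one, while 55 gaps with 10 or more members held 766 between them. A gap just over 200 kb has little sequence in which a member can lie. Whether members gathered beyond what gap size gives was not tested. Another member lay within 10 kb of 864 members (32.3%) and within 50 kb of 1835 (68.5%). Density was 2.81 members per Mb over all far sequence, and ran from 6.83 on chromosome 12, 5.71 on chromosome 20 and 4.68 on chromosome 8 down to 0.73 on chromosome 13 and 0.63 on chromosome 19.

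The fullest gaps held 17 to 27 members each. The gap between TBX3, a T-box transcription factor, and MED13L held 27 members, with its strongest at chr12:115226949-115227835 (mean percentile 96.1). The gap between IGFBP3, an insulin-like growth factor binding protein, and the focal adhesion gene TNS3 also held 27, led by chr7:46219831-46220723 (95.8). Between DIPK2B and KRABD4 on chromosome X there were 22 (strongest chrX:45479239-45480542, 95.7), and between KLF4, a Krüppel-like factor of epithelial and stem cells, and ACTL7B there were 22 (chr9:108691330-108692279, 98.2). DUSP4, a phosphatase that turns off MAP kinases, and SARAF enclosed 21 members in 712 kb (chr8:29555071-29556805, 98.7). TRIB1 to LRATD2 held 20 (chr8:125647968-125648960, 85.5), ANKRD55 to MAP3K1 held 19 in 582 kb (chr5:56526934-56527736, 98.2), and ACTBL2 to PLK2 held 18 (chr5:57823719-57824523, 87.6). MYC to GSDMC held 18 in 1962 kb, led by the member named above, and KCNU1 to ZNF703 held 17 (chr8:37142677-37143762, 87.8), as did KLF6 to AKR1E2 and ZEB2 to ACVR2A.

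Gene lists, written with earlier results of these data known, were set against the share of far sequence that the same genes flank. Members flanked by an epithelial identity transcription factor numbered 82 (3.06% of members, against 0.833% of far sequence), with 27 beside KLF6, 22 beside KLF4, 10 beside KLF3 and 9 beside TRPS1. Genes of the WNT pathway and its targets flanked 82 members (3.06%, against 0.797% of far sequence): 23 beside the homeobox gene MSX2, 21 beside MYC, 8 beside the cyclin gene CCND1, 8 beside BAMBI, 3 beside AXIN2 and 2 beside CTNNB1, which encodes β-catenin. Endoderm and pancreatic epithelial transcription factors flanked 54 (2.02%, against 0.819%), of which 23 lay beside SOX9, 12 beside SOX2 and 8 beside NR5A2. AP-1, ETS, TEAD and RUNX factor genes flanked 35 (1.31%, against 0.394%) and growth factor and adhesion genes of carcinoma cells 77 (2.88%, against 0.883%). Developmental transcription factors as a whole flanked 188 (7.02%, against 4.88%). Neural adhesion and synapse genes, which border many of the largest gaps in the genome, flanked 148 members (5.53%) but 16.2% of far sequence, and their density was 0.962 per Mb. Of the remaining lists, fibroblast and immune cell genes flanked 16 members (0.598%, against 0.277%), and 1 interferon gene, IFNE, flanked 5 (0.187%, against 0.0154%). Some members count in more than 1 list, so the shares are not separate. The 8 members between PTPRC and NR5A2 are in both the endoderm list and the fibroblast and immune list. The strongest member of each list ranked between 84.6 and 99.7; beside WNT genes it was the MYC member, beside AP-1, ETS, TEAD and RUNX genes the RUNX1 member, and beside endoderm genes chr3:182212313-182213221 next to SOX2 (mean 94.8), which was weaker with Lgk974 (-0.83, adjusted p = 0.0244).

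About 1 member in 10 differed in rank between Lgk974 and DMSO. Over both times, 159 members ranked higher with Lgk974 than with DMSO and 124 ranked lower (limma on the rank scores, Benjamini-Hochberg adjusted over all 35389 constitutive regions, adjusted p under 0.05). Of all constitutive regions 3.98% were called higher and 2.77% lower, and of members 5.94% and 4.63%. Calls in either direction thus came to 10.6% of members and 6.76% of all constitutive regions; they came to 1.72% at gene ends, 8.77% inside genes and 8.37% between genes within 100 kb. Differences between these shares were not tested. The members called higher had a median percentile of 56.1 with Lgk974 and 24.9 with DMSO; those called lower had 23.02 with Lgk974 and 51.95 with DMSO. Calls were fewest among the strongest members: 25 of the 592 with a mean of at least 75 (4.22%) were called. The shares were 11.7% of the 548 members under 25, 14.7% of the 804 between 25 and 50 and 10.4% of the 733 between 50 and 75. The mean uses the same percentiles as the test, so a large difference by itself keeps a member from either extreme. This pattern was not tested. All 159 and all 124 had the same sign at both times, as the choice over both times favours. Without DMSO 24 h replicate 3 the counts were 211 higher and 236 lower, and ranking by the deposited fold gave 30 higher and 24 lower, with the sign kept for all 283.

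The times were then taken apart, which compares separate libraries and separate controls. At 24 h, 46 members ranked higher and 23 lower (1.72% and 0.859% of members, against 0.952% and 0.407% of all constitutive regions, or 1.36% in either direction). At 48 h, 47 ranked higher and 47 lower (1.76% in each direction, against 1.23% and 0.921% of all constitutive regions, or 2.15% in either direction). The members called higher at 24 h had a median difference of 1.29 there and 1.08 at 48 h. All 46 were positive at 48 h, and of the 23 called lower at 24 h, 22 were negative at 48 h. Over all constitutive regions, all 337 called higher at 24 h were positive at 48 h (median 1.06), and 139 of 144 called lower were negative. Of members called at 48 h, 46 of 47 higher and 45 of 47 lower had the same sign at 24 h. Over all constitutive regions these shares were 98.6% and 97.2%. Across all 2677 members the differences at both times had a Pearson correlation of 0.60 and shared a sign in 65.0%, against 0.51 and 62.0% over all constitutive regions. Of members called at 24 h or at 48 h, 31 were called at both, 44.9% of the 69 at 24 h and 33.0% of the 94 at 48 h. This overlap was not counted over all constitutive regions, so it cannot be read as particular to members. Ranking by the deposited fold gave 2 higher and 1 lower at 24 h and 2 and 3 at 48 h, array weights gave 133 and 122 at 24 h and 131 and 119 at 48 h, and leaving out the 3 libraries that stand apart (replicate 3 of Lgk974 24 h, DMSO 24 h and Lgk974 48 h) gave 78 and 82 at 24 h and 120 and 120 at 48 h. The counts also moved with single libraries: leaving out Lgk974 24 h replicate 1, 2 or 4 or DMSO 24 h replicate 2 or 4 left 24, 22, 25, 28 and 27 members higher at 24 h, leaving out Lgk974 24 h replicate 1 or 2 or DMSO 24 h replicate 1, 2 or 4 left 14, 13, 12, 12 and 12 lower, and without DMSO 24 h replicate 3 there were 71 lower. At 48 h, the counts without Lgk974 replicate 1, 2 and 3 were 21, 13 and 40 higher and 30, 19 and 20 lower, those without DMSO 48 h replicate 1, 2, 3 and 4 were 28, 36, 25 and 30 higher and 28, 21, 20 and 19 lower, and those without DMSO 24 h replicate 3, which enters through the shared spread, were 89 and 116.

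No member's treatment difference changed between 24 h and 48 h by the test of that change (0 of 2677, against 0% of all constitutive regions; limma). At an unadjusted p under 0.05, 39 members had a larger value at 48 h and 79 a smaller one (1.46% and 2.95% of members, against 1.75% and 1.59% of all constitutive regions). Over both treatments, 3 members ranked higher at 48 h than at 24 h and 0 ranked lower (against 0.0254% and 0.00565% of all constitutive regions, or 0.0311% in either direction), with 190 and 97 at an unadjusted p under 0.05 (7.10% and 3.62% of members, against 3.77% and 3.03% of all constitutive regions). Leaving out any of the 7 libraries at 48 h, or Lgk974 24 h replicate 1, 2 or 4, left 0 or 1 of these.

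**Figure D3:**
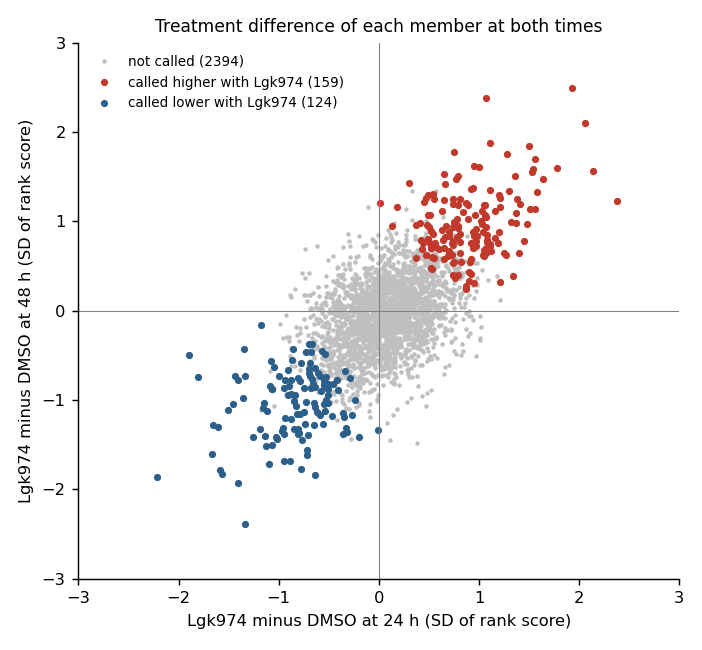
Difference of each member at 24 h (x axis) and 48 h (y axis), Lgk974 minus DMSO in SD of the rank score; red members were called higher (159) and blue ones lower (124) over both times, grey ones were not called (2394). The called members lie at the upper right and lower left.

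The largest rise was at chr3:193853188-193854207, 155 kb past OPA1, which encodes a fusion protein of the inner mitochondrial membrane. Its percentiles were 82.8, 87.8, 75.6 and 80.5 with Lgk974 at 24 h, against 11.1, 18.7, 22.1 and 11.7 with DMSO at 24 h. At 48 h they were 95.1, 97.1 and 94.2 with Lgk974, against 15.8, 34.5, 18.8 and 19.3 with DMSO. Every Lgk974 library was above every DMSO library, and the difference was 2.21 ± 0.15 SD of the rank score (SE, adjusted p = 2.88e-07).

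A pair of members 2312 bp apart, before ZNF703, a transcriptional corepressor, moved in opposite directions. At chr8:37590986-37591830 the percentiles were 64.1, 57.1, 72.4 and 56.7 with Lgk974 at 24 h, against 0.493, 2.497, 13.6 and 9.80 with DMSO. At 48 h they were 65.6, 54.0 and 71.4 with Lgk974, against 0.366, 6.36, 13.7 and 4.82 with DMSO. The neighbour at chr8:37594143-37595207 had 6.65, 11.6, 1.56 and 13.3 with Lgk974 at 24 h, against 77.8, 80.2, 70.6 and 76.8 with DMSO, and 15.5, 6.79 and 30.0 with Lgk974 at 48 h, against 71.9, 77.6, 83.6 and 85.9 with DMSO. Neither member's groups overlapped. The differences were 2.08 ± 0.24 (adjusted p = 5.35e-05) and -2.04 ± 0.18 (adjusted p = 7.39e-06), so the member that was the weaker of the pair with DMSO was the stronger with Lgk974. Both calls held when regions were ranked by fold (adjusted p = 0.000392 and 0.000606).

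The TLE4 to TLE1 gap, whose flanking genes encode Groucho corepressors that act with TCF factors, likewise held a member in each direction. At chr9:81314158-81314947, 269 kb from TLE1, percentiles were 33.7 to 69.4 (median 54.6) with Lgk974 and 0.171 to 24.2 (median 4.98) with DMSO, without overlap (1.85 ± 0.28, adjusted p = 0.000505). At chr9:81001875-81002703, 581 kb from TLE1, they were 1.17 to 60.0 (median 43.1) with Lgk974 and 59.0 to 97.9 (median 89.5) with DMSO (-1.64 ± 0.31, adjusted p = 0.00295). The slight overlap there came from Lgk974 24 h replicate 1 at 60.0 and DMSO 24 h replicate 3 at 59.0.

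Between the zinc finger gene ZNF621, 260 kb away, and CTNNB1, chr3:40800181-40800826 rose from the bottom of the ranking without becoming strong: its percentiles were 39.0, 26.3, 49.5 and 21.2 with Lgk974 at 24 h, against 0.243, 0.441, 7.39 and 7.90 with DMSO. At 48 h they were 23.4, 43.7 and 11.6 with Lgk974, against 2.26, 2.85, 1.20 and 0.591 with DMSO. The groups did not overlap (1.56 ± 0.23, adjusted p = 0.000452). The other member of the gap, chr3:40971035-40972292, had means of 93.9 with Lgk974 and 88.8 with DMSO and did not pass the test (0.25 ± 0.20, adjusted p = 0.59).

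Members that already ranked near or above the middle with DMSO also rose. At chr7:46432491-46433243, 511 kb from IGFBP3, percentiles were 97.2, 92.3, 85.9 and 92.8 with Lgk974 at 24 h, against 50.3, 37.6, 46.3 and 51.6 with DMSO, and 98.004, 99.2 and 97.0 with Lgk974 at 48 h, against 46.2, 69.8, 71.0 and 75.4 with DMSO. The groups did not overlap (1.63 ± 0.17, adjusted p = 2.39e-05). At chr3:153599298-153600188 between RAP2B, a RAS-related GTPase gene, and ARHGEF26 they were 86.8 to 98.8 (median 96.2) with Lgk974 and 36.1 to 79.5 (median 53.6) with DMSO. At chr5:124857697-124858528 beside ZNF608 they were 95.6 to 99.9 with Lgk974 and 18.4 to 88.4 with DMSO, where 18.4 was DMSO 24 h replicate 3; this call was lost when regions were ranked by fold (adjusted p = 0.0637).

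The remaining members among the 10 largest rises were weak with DMSO. At chr13:26951489-26952211 between GPR12 and the deubiquitinase gene USP12 percentiles were 23.3 to 59.3 with Lgk974 and 0.0014 to 8.81 with DMSO. At chr5:68456534-68457389 past PIK3R1, the regulatory subunit of PI3-kinase, they were 44.9 to 75.1 with Lgk974 and 1.48 to 20.4 with DMSO. Neither overlapped. At chr11:110971037-110971699 beside ARHGAP20 they were 15.9 to 77.3 with Lgk974 and 0.216 to 36.7 with DMSO; 36.7 was DMSO 24 h replicate 3, the other 7 DMSO libraries were at or below 4.17, and ranking by fold left an adjusted p of 0.0638.

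The falls also took in 3 members between LRATD2 and POU5F1B, a retrogene of the POU5F1 family that lies before MYC. At chr8:127246700-127247888 percentiles were 19.5, 25.5, 42.8 and 40.9 with Lgk974 at 24 h, against 91.3, 92.3, 32.6 and 85.9 with DMSO. At 48 h they were 43.2, 22.9 and 15.6 with Lgk974, against 97.8, 96.3, 96.0 and 92.3 with DMSO. Only DMSO 24 h replicate 3, at 32.6, overlapped the Lgk974 libraries (-1.86 ± 0.25, adjusted p = 0.000152). At chr8:127265383-127266635 percentiles were 8.54 to 37.4 (median 19.2) with Lgk974 and 44.1 to 86.1 (median 79.5) with DMSO, without overlap. At chr8:127218693-127219688 they were 1.49 to 22.6 (median 4.05) with Lgk974 and 19.1 to 63.1 (median 41.1) with DMSO, a call that was lost under the fold ranking (adjusted p = 0.0721).

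At chr7:130845121-130846139 between KLF14 and MKLN1, a component of an E3 ubiquitin ligase complex, percentiles were 35.4 to 55.2 (median 48.9) with Lgk974 and 85.2 to 92.4 (median 88.7) with DMSO. The groups did not overlap. At chr14:54169268-54169997 before the phosphatase gene CDKN3 they were 11.8 to 25.2 with Lgk974 and 29.1 to 85.8 with DMSO, also apart. At chr5:13510112-13511151 between the δ-catenin gene CTNND2 and the dynein gene DNAH5 they were 6.41 to 56.9 with Lgk974 and 49.2 to 87.0 with DMSO. In the last of these the overlap was between Lgk974 48 h replicate 3 and DMSO 24 h replicate 3.

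**Figure D4:**
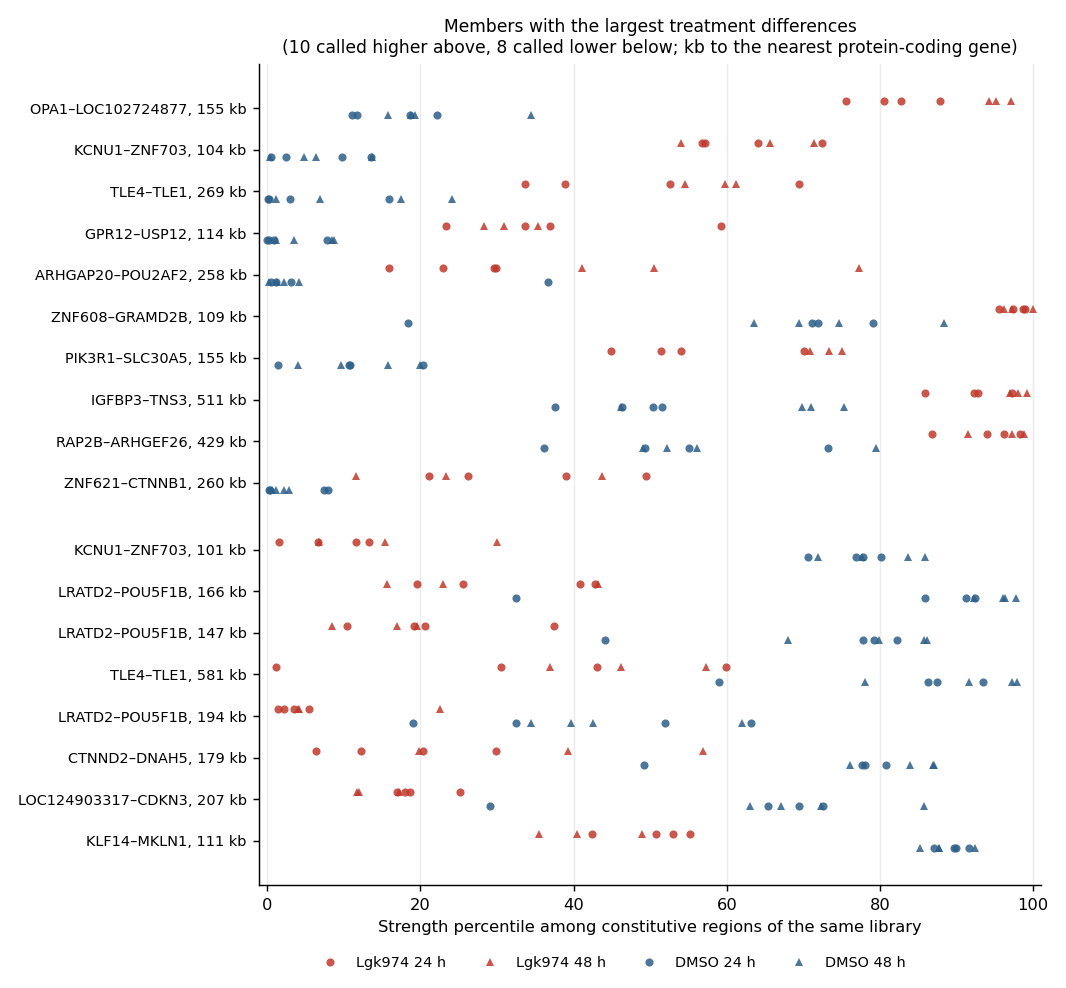
Strength percentile (0 to 100) of 18 of the members with the largest treatment differences; each point is a library, red for Lgk974 and blue for DMSO, circles for 24 h and triangles for 48 h, and rows are named by the genes on either side and the distance to the nearer. The 10 members above rank higher with Lgk974 and the 8 below lower, and most stray blue circles are DMSO 24 h replicate 3.

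Across all members, 46 had every Lgk974 library above every DMSO library and 23 had every Lgk974 library below (1.72% and 0.859% of members); of all constitutive regions 1.25% and 0.596% were separated in these ways. Calls were spread over 200 gaps. Of 53 gaps with at least 2 called members, 28 had them all in a single direction, and 25 gaps held members called in both. Neighbouring members did not move together closely. Over the 565 pairs in the same gap up to 10 kb apart, the correlation of their differences was 0.03 and 52.9% shared a sign. Over the 1575 such pairs 10 to 50 kb apart, the correlation was 0.11 and 53.9% shared a sign. These pairs share libraries and, in part, members.

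Some gaps leaned to a side; those described here were picked after their values were seen, and a lean over a gap was not tested. Between KIRREL3 and ETS1, 10 of 11 members had a positive difference, 4 were called higher and 0 lower, and the median difference was 0.59. Its largest was at chr11:128058685-128059375, with means of 58.3 with Lgk974 and 16.02 with DMSO (1.23 ± 0.16, adjusted p = 0.000112). Between KLF4 and ACTL7B, 16 of 22 were positive, 4 were called higher and 0 lower, and the median was 0.29; the called members had means of 81.2, 53.2, 45.1 and 75.2 with Lgk974, against 52.9, 33.0, 18.5 and 40.003 with DMSO. Between IGFBP3 and TNS3, 21 of 27 were positive with 3 called higher and 0 lower, and beside RUNX1 8 of 9 were positive with 2 called higher and 1 lower. In the other direction, 1 of 9 members between KRR1 and PHLDA1 was positive (median -0.56, 1 called lower), 3 of 11 between LRATD2 and POU5F1B and 3 of 20 between TRIB1 and LRATD2 were called lower with 0 higher, and 3 of 7 between the cadherin gene FAT1 and ZFP42 were called lower with 1 called higher. TBX3 to MED13L, with 27 members, held 3 called higher and 4 lower. The median difference over all 2677 members was 0.02.

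**Figure D5:**
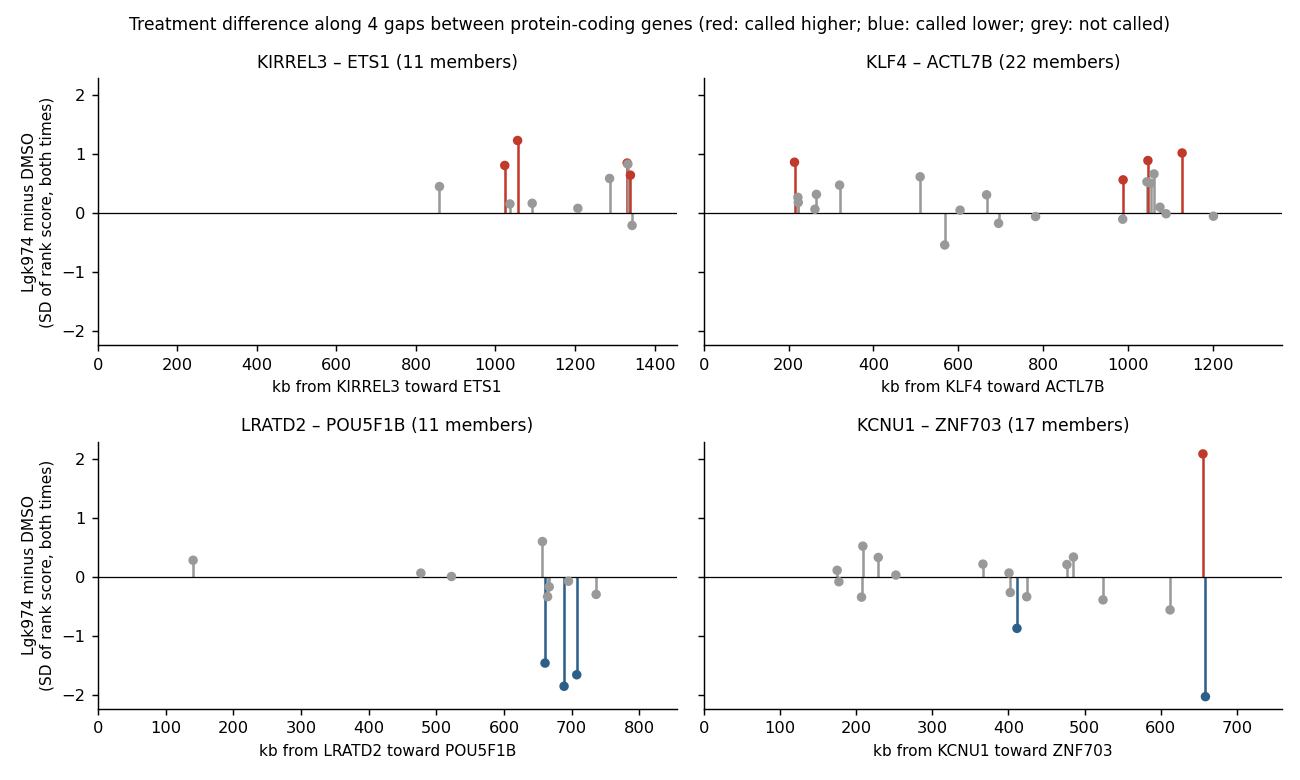
Difference of each member over both times (y axis, Lgk974 minus DMSO in SD of the rank score) against its distance in kb from the gene on the left of 4 gaps; red members were called higher, blue lower and grey neither. KIRREL3 to ETS1 holds 4 red and 0 blue members, LRATD2 to POU5F1B 3 blue, and the red and blue members nearest to ZNF703 are 2312 bp apart.

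The calls over both times were then counted by gene list and chromosome, to be read against 5.94% higher and 4.63% lower over all members and 3.98% and 2.77% over all constitutive regions; none of these counts was tested. Members beside AP-1, ETS, TEAD and RUNX factor genes were called higher in 8 and lower in 2 of 35 (median difference 0.16), those beside epithelial identity factors higher in 8 and lower in 3 of 82 (0.07), and those beside endoderm and pancreatic factors higher in 3 and lower in 2 of 54 (0.03). Beside WNT pathway and target genes, 3 of 82 were called higher and 3 lower (median -0.00): higher in 1 of 3 beside AXIN2, 1 of 2 beside CTNNB1 and 1 of 21 beside MYC, and lower in 1 of 23 beside MSX2, 1 of 8 beside the decoy receptor gene BAMBI and 1 of 6 beside ID2. Growth factor and adhesion genes had 2 higher and 6 lower of 77 (-0.09), with 2 lower of 5 beside the receptor gene FGFR2. Developmental factors had 11 higher and 13 lower of 188 (-0.04), neural adhesion genes 7 higher and 5 lower of 148 (0.02), fibroblast and immune genes 0 higher and 1 lower of 16 (-0.01), and the 5 members beside IFNE 0 of either (-0.18). By chromosome, chromosome 14 had 0 higher and 9 lower of 106 members (median -0.11) and chromosome 11 had 9 higher and 1 lower of 77 (0.08); chromosomes 5, 8 and 12 had 17, 13 and 18 higher and 15, 13 and 15 lower. Of the 99 members with a promoter window of a non-coding RNA, 6 were called higher and 6 lower.

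Libraries of the same treatment ranked members more alike than libraries of different treatments. The Spearman correlation over members averaged 0.81 over the 49 pairs within a treatment and 0.75 over the 56 pairs between treatments, and 0.87 and 0.79 without DMSO 24 h replicate 3. Over all constitutive regions the averages were 0.84 and 0.80. The pairs share libraries, so these are descriptions.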

How the data were processed

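ATAC-seq of HPAF-II cells was available as 1 peak list per library (15 libraries, hg38). Per the submitters' processing notes, the tools were MACS2, Bowtie2, Trimmomatic, SAMtools, Picard, bedtools, DiffBind, DESeq2, ChIPseeker and HOMER; for their settings, any transposase shift and the cleaning of the lists, the sources used here give nothing. Each deposited peak carries the authors' score (10 times a −log10 q), a fold ratio over background, −log10 p and −log10 q, and positions and summits, none of which is a count. No read counts were used, so depth is unknown, and neither intervals on reads nor a count test were computed. The labels call these libraries separate samples.

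Peaks were merged in Python 3.11.15 (pandas 2.3.3, scipy 1.17.1) and checked against bedtools 2.31.1; 1138 peaks off chromosomes 1 to 22 and X were left out and 1 damaged line was read as chromosome 1. Protein-coding genes came from RefSeq (GRCh38.p14, the hg38 assembly), without strand or exons. In each library the 35389 regions called in all libraries were ranked by the −log10 q of their strongest peak. The same regions were ranked in every list, so list length did not change how many were ranked, although a library's quality can still change their order. Ranks became normal scores (SD of the rank score), tested with limma 3.58.1 in R 4.3.3: 4 group means in 1 fit, contrasts at 24 h, at 48 h and their mean, two-sided, Benjamini-Hochberg adjusted over all 35389 regions. On data with known shifts the fit is limited for small ones, as given in the closing section.

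Members and gene lists were chosen with earlier results of these data known. Named by rule were the 10 strongest and 5 weakest members, the 10 largest called differences in each direction (2 of those called lower are not reported here), the 5 farthest, the 10 fullest gaps, the members at each threshold, the 5 strongest near ends of non-coding genes and the strongest of each gene list. The planned motif search in 200 bp around summits needed a genome; promoter windows were searched instead, chosen after the data were seen.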

Additional observations from a re-analysis of the deposited data

Results flagged for a closer look

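The percentiles of the 20 members with the largest treatment differences were checked in each of the 3 groups of 4 libraries (60 sets of values). Chance alone flags about 1 in 20 unselected sets of normal values. The sets here were selected, share libraries and hold bounded percentiles, so that rate need not apply to them. A value was singled out where its gap to the nearest other library exceeded Dixon's 95% limit for 4 libraries. There were 7 such values, and each was DMSO 24 h replicate 3. It was the highest of its group at chr13:26951489-26952211 between GPR12 and USP12 (7.8, with the other 3 libraries from 0.0 to 0.9) and at chr11:110971037-110971699 between ARHGAP20 and POU2AF2 (36.7, others 0.5 to 3.1). It was the lowest at chr5:124857697-124858528 between ZNF608 and GRAMD2B (18.4, others 71.1 to 79.1), at chr8:127246700-127247888 (32.6, others 85.9 to 92.3) and chr8:127265383-127266635 (44.1, others 77.8 to 82.2) between LRATD2 and POU5F1B, at chr5:13510112-13511151 between CTNND2 and DNAH5 (49.2, others 77.7 to 80.8) and at chr14:54169268-54169997 before CDKN3 (29.1, others 65.4 to 72.5). In 6 of the 7 the library lay on the side of the Lgk974 values; beside ZNF608 it lay away from them, and the difference there was 1.49 SD of the rank score without it. All 7 calls held without it.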

How the results depend on the processing

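Membership was 2680 with an overlap of 50 bp, 1893 with lists cut to 53610 peaks, 2434 at a −log10 q of at least 5, 3961 with 14 of 15 libraries, 2685 with no width limit and 2003 under 1000 bp, and moved to 4531 at over 50 kb and 1299 at over 200 kb; without each replicate it ran from 2677 to 3306. The members' median percentile was 59.1 by fold, and 48.9 to 50.4 without each replicate. Over both times, members called higher and lower numbered 30 and 24 by fold, 247 and 242 without the 3 libraries that stand apart (replicate 3 of Lgk974 24 h, DMSO 24 h and Lgk974 48 h), 294 and 263 with array weights, 162 and 147 when ranked among regions away from gene ends, 134 and 89 by the exact permutation test (193 of the 283 kept), and 118 to 211 and 94 to 236 without each replicate. All constitutive regions called numbered 485 by fold, 4066 without the 3 libraries, 4700 with array weights and 1838 to 3705 without each replicate. At 24 h, members higher and lower were 2 and 1 by fold, 78 and 82 without the 3 libraries, 133 and 122 with array weights and 0 and 0 by the exact permutation test, whose smallest p of 0.0286 cannot pass the adjustment, and 22 to 64 and 12 to 71 without each replicate. At 48 h they were 2 and 3, 120 and 120, 131 and 119, 0 and 0 (smallest p 0.0286), and 13 to 89 and 19 to 116. Between times, members called were 0 by fold, 8 without the 3 libraries, 17 with array weights and 0 to 4 without each replicate; no alternative called a member whose treatment difference changed with time (0 under each, and 0 to 0 without each replicate). No called member changed sign under any alternative run, and of the 20 with the largest treatment differences all kept the call under every alternative but the fold ranking, where 3 lost it. The cause of these changes was not tested.

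Same-numbered libraries deviated together at 24 h (r = 0.17, 0.19, 0.14 and 0.15, each the highest for its Lgk974 library) but not in every pair at 48 h (0.22, 0.00 and 0.27), so the numbers were not taken as pairs. With the replicate block, 202 members were higher and 154 lower over both times, 69 and 38 at 24 h, 61 and 55 at 48 h, and 1 between times. Known shifts of 0.5, 1 and 2 SD were put into 200 regions. Deviations from the group means were first shuffled over libraries within each region, so no library stood apart. The test over both times recovered 5 of 67, 45 of 67 and 66 of 66, so shifts of 0.5 and 1 SD were often missed there. In the data 2392 of the 35389 regions were called, which makes the adjustment less strict than with 200 changed regions. These rates therefore need not hold for the data, where called members had a median absolute difference of 0.88. The tests at a single time and of a change with time were not tried in this way.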
